A study of Mus musculus with 6 samples.

Results

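The WNT and beta-catenin transcription machinery was described here through 10 genes: the effector Ctnnb1, the DNA-binding factors Lef1, Tcf7 and Tcf7l2, the destruction complex genes Axin1, Axin2, Apc and Gsk3b, and the nuclear coactivators Bcl9 and Pygo2. The rule names them by role and uses no measured value, but the members were chosen with earlier results of these data known. Every probe set that the platform annotation assigns to exactly 1 of these symbols was taken. This gave 26 probe sets of 9 genes, out of 45037 probe sets and 18193 genes measured. The signal of Tcf7 was not analysed here.

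The arrays measured mouse bone marrow HSPCs, the haematopoietic stem and progenitor population, which was sorted as cells without lineage markers that carried c-Kit and Sca1. The Med12 KO group came from Med12Flox;MxCre mice, in which the interferon-inducible Mx promoter drives Cre and deletes the floxed Med12 gene after injection of pI:pC, a synthetic double-stranded RNA. The control group came from mice described only as controls, so it is not known here whether they carried Cre or the floxed allele. Mice of both groups had a B6/129 background, and the cells of both were taken 4 days after pI:pC. Each group had 3 arrays, and the labels give neither an age nor a separate animal for each array, so the p-values below describe the variation among these 6 arrays, which may be technical. Mx-Cre is known to act in many interferon-responsive cells besides HSPCs.

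In WNT signalling, a WNT ligand bound to a Frizzled receptor and an LRP co-receptor stops the destruction complex of Axin, Apc and Gsk3b from marking beta-catenin for degradation. Stabilised beta-catenin enters the nucleus and binds TCF/LEF factors on DNA, where Bcl9 and Pygo proteins and Mediator help it to activate target genes. Med12, a subunit of the Mediator kinase module, is known as a beta-catenin coactivator. In blood formation Lef1 and Tcf7 are best known from lymphocyte development.

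The promoters of Tcf7l2 and Bcl9 are shown because these 2 genes hold the smallest p-values among the members. Each sequence holds the 250 bases before an annotated start, 5′ to 3′ on the gene's own strand, from RefSeq on GRCm38.p6. Capitals mark a match to the TCF/LEF-type motifs CTTTGAT or CTTTGTT, searched on both strands.
Tcf7l2, upstream start, chr19:55741560-55741809, plus strand: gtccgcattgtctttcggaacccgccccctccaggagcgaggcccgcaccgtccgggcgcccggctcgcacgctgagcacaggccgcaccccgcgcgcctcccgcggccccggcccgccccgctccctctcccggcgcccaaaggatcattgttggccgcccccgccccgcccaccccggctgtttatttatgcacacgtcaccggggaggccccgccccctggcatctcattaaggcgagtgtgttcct
Tcf7l2, internal start, chr19:55895071-55895320, plus strand: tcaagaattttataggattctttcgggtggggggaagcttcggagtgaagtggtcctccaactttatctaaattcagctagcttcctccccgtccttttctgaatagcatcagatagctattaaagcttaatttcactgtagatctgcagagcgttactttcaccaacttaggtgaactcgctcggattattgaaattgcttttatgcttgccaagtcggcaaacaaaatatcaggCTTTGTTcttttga
Bcl9, chr3:97227365-97227614, minus strand: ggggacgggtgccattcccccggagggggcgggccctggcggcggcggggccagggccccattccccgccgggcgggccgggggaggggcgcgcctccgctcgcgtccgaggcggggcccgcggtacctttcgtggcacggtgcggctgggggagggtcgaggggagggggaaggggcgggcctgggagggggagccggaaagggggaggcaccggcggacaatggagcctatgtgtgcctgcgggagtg
The internal Tcf7l2 start held 1 CTTTGTT, beginning 14 bases before the start, and the other 2 windows held neither motif. CTTTGAT was found in 3.21% and CTTTGTT in 5.03% of the 32851 promoter windows of this length in the table, and either one in 8.06%. Of 16 windows that belong to 8 of the 10 genes, only this internal Tcf7l2 start had a match. Tcf7 is counted among these genes, and no window of Axin1 or Apc was used. The upstream Tcf7l2 window was 72.8% G and C, the internal one 40.8% and the Bcl9 window 79.2%.

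The deleted gene was examined first. Med12 had signals of 89.1, 100.4 and 86.4 on the Med12 KO arrays, against 278.6, 837.4 and 441.6 on the control arrays, and the groups did not overlap. On the scale of log2(signal + 16) Med12 differed by -2.17 (SE 0.38), which missed the threshold of 0.05 with an adjusted p of 0.0796 in limma. It passed in 4 of the other settings, at 0.0339 with a trended, robust prior, and 0.0273 and 0.0234 without the dimmest 25% and 50% of probe sets. The fourth, at 0.0134, joined that prior to the 25% filter and was not a planned setting. Whether the single Med12 probe set lies in the deleted part is not known here. The median signal per array was 16.5 to 21.3 in Med12 KO and 26.7 to 26.9 in controls, so the KO arrays were dimmer at the median. Kit, which encodes the sort marker c-Kit, was at 514.8 to 617.5 in Med12 KO and 805.2 to 1425.4 in controls by its brighter probe set, and the Sca1 gene Ly6a was not analysed here. Cd34, a progenitor marker outside the sort, was at 447.5 to 1077.4 in Med12 KO and 2029.4 to 2278.0 in controls, and both genes were named with their values known.

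No member probe set passed the whole-table test: 0 of 26 had a limma adjusted p under 0.05, where 0.762% of all probe sets did, 0.542% of them with lower signal in Med12 KO. At an unadjusted p under 0.05 there were 7 of 26 (26.9%), against 15.7% of all probe sets. Of these, 6 had lower and 1 had higher signal in Med12 KO, where the whole table had 9.89% lower and 5.81% higher. This excess depended on the scaling: the 7 became 6 after median centring, 4 with quantile and 4 with loess normalization. Over the whole table the number was 7067 as reported, and 8749, 6529 and 6478 under those settings. On the deposited signals the groups also did not overlap for 7 of 26, where 20.9% of all probe sets had groups that did not overlap. Again 6 were lower (13.3% of all probe sets) and 1 was higher (7.61%). The 7 were all 4 probe sets of Tcf7l2, 1 of Bcl9, 1 of Gsk3b and 1 of Ctnnb1. Of the 26, 16 had a negative log2 difference (10 after centring each array on its median, 14 with quantile and 15 with loess normalization), and their median was -0.08, close to the -0.07 of all probe sets. The 26 differed in brightness: 19 were at 16 or above on every array, 3 were under 16 on all 6 arrays, and 4 crossed 16, the amount added before taking log2. Below that amount the log2 scale leaves little room for a difference.

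**Figure D1:**
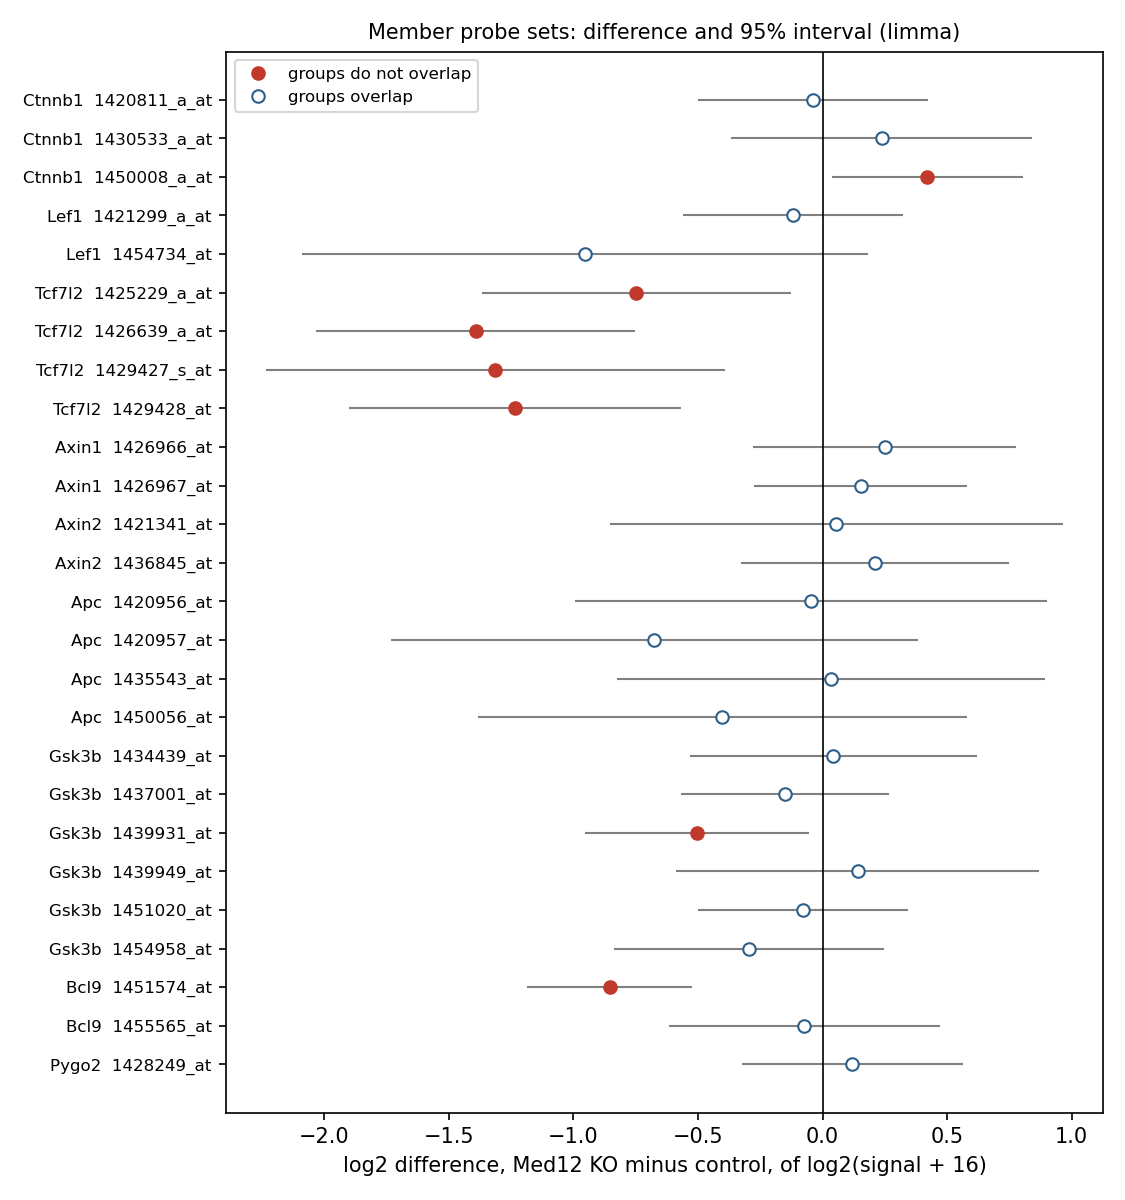
Log2 difference (Med12 KO minus control, horizontal axis) with its 95% interval from limma for each of the 26 member probe sets, grouped by gene. Filled points mark the 7 probe sets whose groups did not overlap; the 4 Tcf7l2 sets and 1 Bcl9 set lie furthest to the left among these.

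Tcf7l2, a TCF/LEF factor that binds beta-catenin and carries it to DNA, had lower deposited signal on every Med12 KO array by all 4 of its probe sets. The brightest, 1429428_at, had signals of 151.8, 104.1 and 67.2 in Med12 KO, against 267.7, 233.9 and 292.3 in controls. The Med12 KO mean was 108 ± 42.4 and the control mean 265 ± 29.3 (SD, n = 3 each). On the log2 scale this was -1.23 (SE 0.27; 95% interval -1.90 to -0.57), and the limma adjusted p was 0.116. The highest KO array lay well below the lowest control array, and the KO arrays were spread more widely around their mean than the controls in proportion to it.

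The second Tcf7l2 probe set, 1426639_a_at, had signals of 37.4, 49.1 and 17.2 in Med12 KO, against 104.4, 111.6 and 120.1 in controls. Its log2 difference was -1.39 (SE 0.26; limma adjusted p = 0.0906). The control arrays were within a narrow band, and Med12 KO replicate 3 was the lowest by both of these probe sets. The third, 1429427_s_at, had 5.2, 27.2 and 15 in Med12 KO, against 51.6, 39.1 and 101 in controls (log2 difference -1.31, SE 0.38, limma adjusted p = 0.184). The fourth, 1425229_a_at, had 19.9, 43.6 and 30.8 in Med12 KO, against 57.4, 48.8 and 83.6 in controls (log2 difference -0.75, SE 0.25, limma adjusted p = 0.240). In these 2 dimmer sets Med12 KO replicate 1 was lowest and replicate 2 was highest of the KO arrays. The 4 sets measured 1 gene on the same arrays, and 2 of them were designed from the same database sequence, so they are not independent replicates.

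When all probe sets of each gene were averaged before the fit, a setting added after the data were seen, Tcf7l2 passed: the log2 difference was -1.17 (SE 0.21) and the limma adjusted p was 0.0475 over 18193 genes. In that fit 2.79% of genes passed, 1.85% of genes with lower signal in Med12 KO, a larger background than the 0.638% by the brightest probe set of each gene. Leaving out 1 array at a time gave log2 differences between -1.48 and -0.98 for 1429428_at and between -1.60 and -1.12 for 1426639_a_at, and neither passed in any of these fits.

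**Figure D2:**
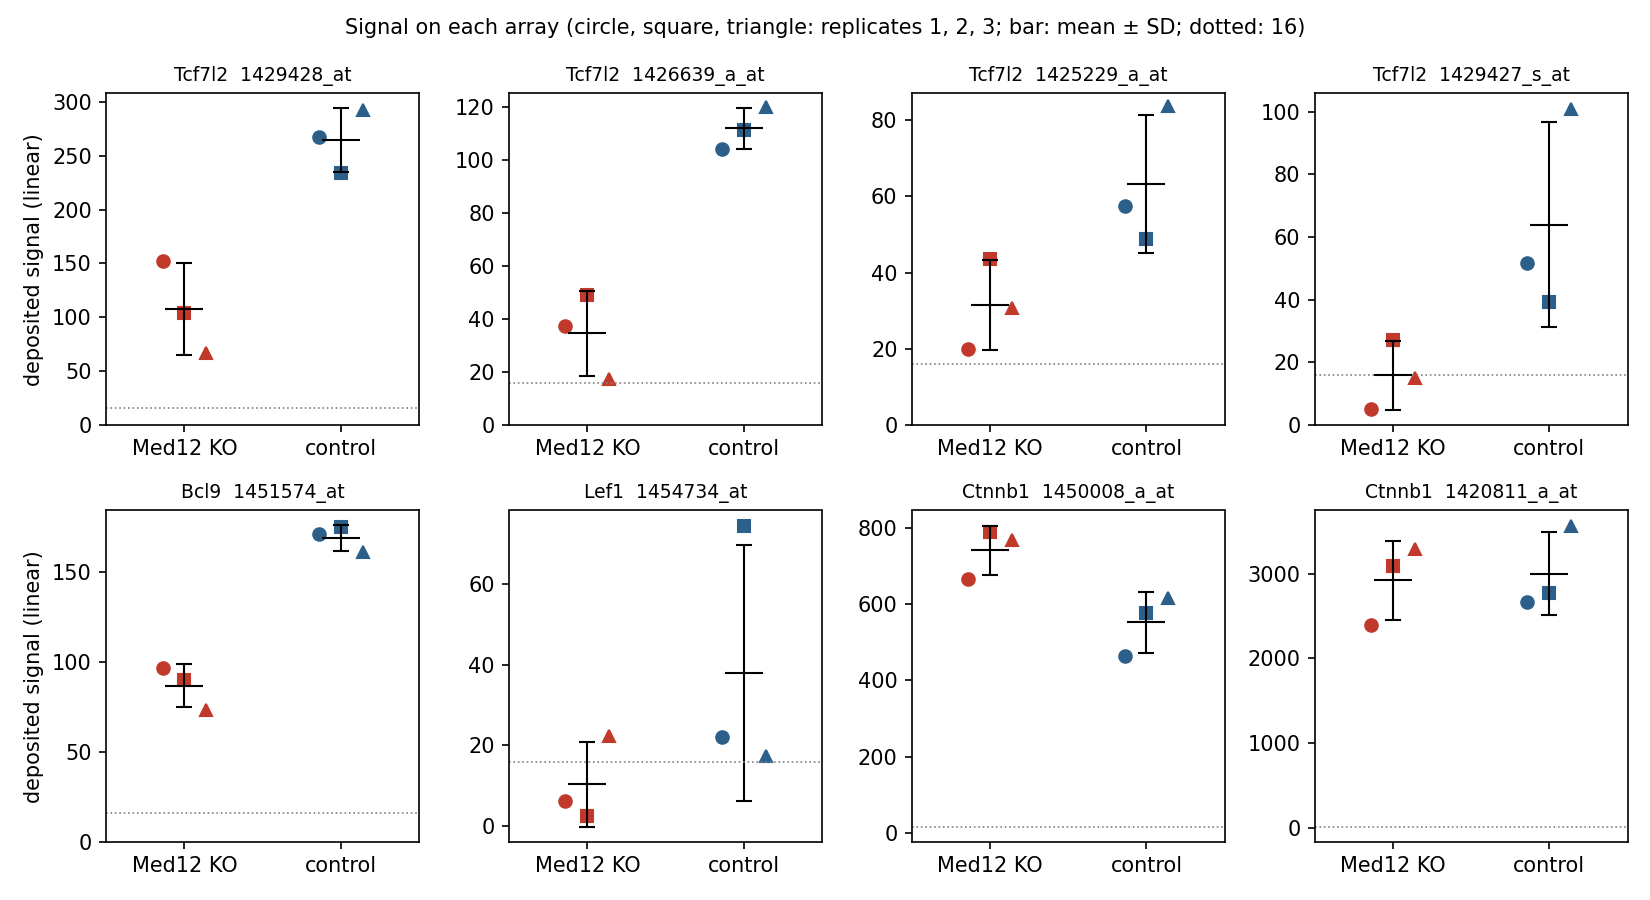
Deposited signal (linear, vertical axes) on each of the 3 Med12 KO and 3 control arrays for 8 member probe sets, with the mean and SD as a bar. The 4 Tcf7l2 panels and the Bcl9 panel show KO points that all lie below the control points; in Lef1 and in the brighter Ctnnb1 set the groups overlap.

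Lef1, a TCF/LEF factor of lymphoid progenitors, was dim in these cells. Probe set 1454734_at had signals of 6.3, 2.5 and 22.4 in Med12 KO, against 22.1, 74.5 and 17.4 in controls. The groups overlapped, and control replicate 2 alone stood high. The log2 difference was -0.95 (SE 0.46; 95% interval -2.09 to 0.18; limma adjusted p = 0.397), and it was -0.51 without control replicate 2. The other Lef1 probe set, 1421299_a_at, was between 1 and 6.5 in Med12 KO and between 1.3 and 6.8 in controls, under 16 throughout, so a difference could not be read from it.

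Bcl9, the adaptor that binds beta-catenin and recruits Pygo proteins, had the smallest p of all the members. Probe set 1451574_at had signals of 96.4, 90.1 and 73.4 in Med12 KO, against 170.8, 174.8 and 160.8 in controls. The Med12 KO mean was 86.6 ± 11.9 and the control mean 169 ± 7.21 (SD, n = 3 each), and every KO array stood clear of every control array. The log2 difference was -0.85 (SE 0.14; 95% interval -1.19 to -0.52) and the limma adjusted p was 0.0661, which misses the threshold. It passed with 64 added before log2 (adjusted p = 0.0493) and lay between 0.0580 and 0.228 under the other settings tried. The second Bcl9 probe set, 1455565_at, was under 16 on all arrays, between 5.5 and 13.8 in Med12 KO and between 5.1 and 15.7 in controls.

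**Figure D3:**
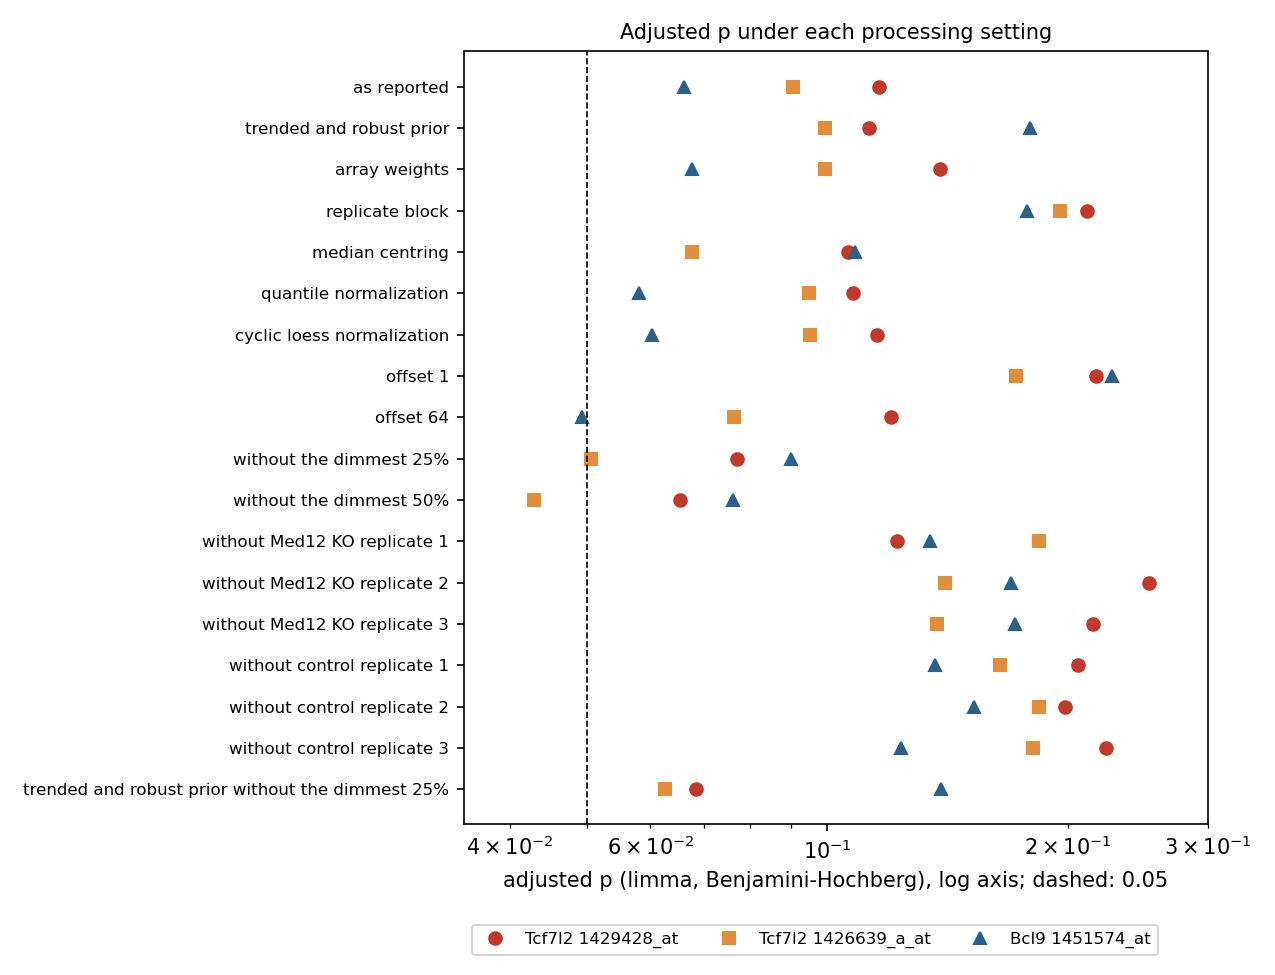
Limma adjusted p (horizontal, log axis) of 2 Tcf7l2 probe sets and 1 Bcl9 probe set under each processing setting. Points lie right of 0.05 except Tcf7l2 1426639_a_at without the dimmest 50% of probe sets (0.0429) and Bcl9 with 64 added (0.0493).

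Pygo2, a PHD finger protein that reads methylated histone H3 and joins Bcl9 at beta-catenin targets, overlapped between the groups. Its single probe set had 372.1, 334.2 and 305.4 in Med12 KO, against 262.7, 287.2 and 387.9 in controls. The log2 difference was 0.12 (SE 0.18), with a 95% interval of -0.33 to 0.56 that leaves out a difference of the size measured for Bcl9.

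Ctnnb1, which encodes beta-catenin, the transcriptional effector that is also a component of cell junctions, was bright in both groups. Its brightest probe set, 1420811_a_at, had 2396.6, 3085.9 and 3284.8 in Med12 KO, against 2661.6, 2773.4 and 3565.9 in controls. These overlapped, and the log2 difference of -0.04 (SE 0.19) turned positive after median centring (0.24) and quantile normalization (0.05). Probe set 1450008_a_at gave another picture, with 666.2, 788.5 and 766.7 in Med12 KO, against 463.3, 576.1 and 616.6 in controls. Those groups did not overlap, and the log2 difference was 0.42 (SE 0.16; limma adjusted p = 0.279). The third set, 1430533_a_at, was at 0.24 (SE 0.25), so the 3 probe sets of this gene did not share a sign and none passed.

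The destruction complex genes showed no difference beyond the spread between arrays in their brighter probe sets. Axin1, the scaffold of the complex, had 198, 211.4 and 149.5 in Med12 KO by 1426966_at, against 116.8, 187.3 and 161.7 in controls, a log2 difference of 0.25 (SE 0.22). Its other probe set was at 0.15 (SE 0.17). The 95% intervals of the 2 Axin1 probe sets ran from -0.28 to 0.78 and from -0.27 to 0.58. Differences within these ranges were not excluded with 3 arrays each.

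Axin2, both a scaffold of the complex and a direct target used as a readout of beta-catenin activity in many tissues, was dim. Probe set 1436845_at had 21.6, 29.4 and 41 in Med12 KO, against 32.7, 22.6 and 17.4 in controls, with a log2 difference of 0.21 (SE 0.22; 95% interval -0.33 to 0.75). The other set, 1421341_at, was between 1.6 and 20.8 in Med12 KO and between 3 and 18.2 in controls. At these signals the order of the groups could not be told apart from the spread between arrays.

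Gsk3b, the kinase that phosphorylates beta-catenin, was read by 6 probe sets, 4 with negative and 2 with positive log2 differences. The brightest, 1454958_at, had 799.3, 1062.7 and 792.3 in Med12 KO, against 840.6, 1345.7 and 1109.8 in controls (log2 difference -0.30, SE 0.22, limma adjusted p = 0.593). The groups did not overlap for 1439931_at, at 0.8 to 8.7 in Med12 KO and 9.3 to 14.6 in controls (log2 difference -0.50), but that probe set was under 16 on every array. The remaining 4 Gsk3b sets had overlapping groups and log2 differences from -0.15 to 0.14.

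Apc, the scaffold that presents beta-catenin to the kinases, varied more between arrays of 1 group than between the groups. Probe set 1420956_at had 167.3, 379.6 and 383.6 in Med12 KO, against 218.2, 297.4 and 419 in controls, a log2 difference of -0.05 (SE 0.39). Probe set 1420957_at was at -0.67 (SE 0.43), with 108, 166.5 and 145.8 in Med12 KO, against 126.7, 214.8 and 436.4 in controls, and control replicate 3 stood high. Without that array the difference was -0.24. The last 2 Apc sets were at -0.40 and 0.03 with intervals that held 0.

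Across the wider pathway, 127 other genes were grouped by role and 125 of them were measured, each by its brightest probe set. By the brightest probe set none passed with limma, where 0.989% of all genes did. Among all probe sets of the 125 genes, 1 dimmer set of Sox4 and 1 of Tle3 passed, where 0.762% of all probe sets did. By the brightest, 17 had an unadjusted p under 0.05 with lower and 8 with higher signal in Med12 KO. Those are 13.6% and 6.4% of the 125, against 10.3% and 7.83% of all genes. Of the 125, 85 (68.0%) had negative log2 differences, against 57.7% of all genes. The number of negative ones was 47 once arrays were centred on their medians, 70 by quantile and 74 by loess normalization. Median centring moved the median of all genes to 0.22, where it had been -0.05, which is a shift of every value in the same direction.

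Many ligand and secreted inhibitor genes were dim. Of 19 WNT ligand genes 10 were under 16 on all arrays. Their list's median log2 difference was -0.14, or 0.13 after median centring, against -0.05 and 0.22 for all genes. The 4 ligand genes of smallest p were Wnt7b at 0.44, Wnt5a at -0.34, Wnt3a at -0.78 and Wnt6 at -0.79, with limma adjusted p from 0.211 to 0.317. Of 12 secreted inhibitor genes 8 were under 16 on all arrays. Log2 differences of the 12 ran from -0.24 to 0.25 with a median of -0.01, or 0.26 after median centring. The inhibitors Wif1 (-0.22), Sost (-0.22), Dkk3 (-0.24) and Sfrp5 (0.12) had the smallest p among them, all overlapping between groups.

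Among receptors, Lrp5, a co-receptor that binds Axin when WNT is present, had signals of 96.8, 108.9 and 105.2 in Med12 KO, against 186.4, 228.1 and 179.2 in controls. The groups stood apart, the log2 difference was -0.83 (SE 0.14), and the limma adjusted p was 0.0727. Its partner co-receptor Lrp6, also named with its values known, was at -0.17 by its brighter and -1.004 by its dimmer probe set, and the groups overlapped in both. The receptor Fzd9 was at -0.83 (adjusted p = 0.186), Lgr5 at -0.48 and Ror2 at 0.35, the last 2 under 16 on all arrays. The list of 20 had a median of -0.30, or -0.02 after median centring, where the medians of all genes were -0.05 and 0.22.

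The cytoplasmic relay list of 20 genes held no gene whose brightest probe set was under 16 on all arrays. Its median was -0.12, or 0.16 after median centring, against -0.05 and 0.22 for all genes. Csnk1g3, a casein kinase of the membrane that phosphorylates the LRP co-receptors, was at -0.68 (adjusted p = 0.291). Csnk1d was at -0.40, the ubiquitin ligase gene Siah1a at -0.46 and Csnk1g2 at -0.28. Each of these 4, those of smallest p on the list, had groups that did not overlap, and none passed. The rest of the list overlapped, and 20.9% of all probe sets had groups that did not.

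Nuclear partners of beta-catenin pointed both ways. The acetyltransferase gene Crebbp had signals of 952.2, 947.8 and 800.7 in Med12 KO, against 1243.8, 1172.3 and 1392.8 in controls. Its log2 difference was -0.49 (SE 0.14; limma adjusted p = 0.179), and all 4 Crebbp probe sets were negative, from -1.06 to -0.49. Cdc73, a subunit of the PAF1 elongation complex that binds beta-catenin, was at 0.51 by its brightest set, but 5 of its 7 probe sets were negative. The corepressor Tle2 was at -1.59 (adjusted p = 0.221) and the ATPase gene Ruvbl2 at 0.48 (adjusted p = 0.259). The corepressor gene Tle3 was negative by all 4 of its probe sets, at -0.77 by the brightest (adjusted p = 0.583), and fell by the dimmest, which had 9.8, 20.1 and 7.1 in Med12 KO, against 75, 72.8 and 84.2 in controls (-1.74; limma adjusted p = 0.0341). The list of 25 genes had a median of -0.12, or 0.15 after median centring, against -0.05 and 0.22 for all genes. With its values known, the Bcl9 paralog Bcl9l is added here: it stood at -0.91 (adjusted p = 0.330) by its brightest probe set, and the remaining 2 were negative too.

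Among target and feedback genes, Sox4, an HMG-box factor of lymphoid progenitors that also interacts with TCF proteins, gave the largest difference. Its brightest probe set had 523.8, 539.8 and 252 in Med12 KO, against 1587.1, 1538.3 and 1851.4 in controls. The log2 difference was -1.95 (SE 0.31; limma adjusted p = 0.0656), and the groups were far apart. All 8 Sox4 probe sets were negative, and 1 of them, 1449370_at, passed (-1.82; limma adjusted p = 0.0428). Myc, a growth-promoting target of WNT in many tissues, was at -0.45 (adjusted p = 0.291) with signals of 1353.2, 1410.6 and 1283.2 in Med12 KO, against 1513.3, 1858.4 and 2226.3 in controls. The feedback inhibitors Nkd1 (-0.33) and Nkd2 (-0.68) were dim. The 19 genes measured had a median of -0.29, or -0.02 after median centring, where the medians of all genes were -0.05 and 0.22.

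Of the 10 junction partners of beta-catenin, 5 were on each side of 0, and 2 were negative after median centring. The muscle cadherin Cdh15 had 30.3, 53.3 and 35.3 in Med12 KO, against 12.1, 8.8 and 6.4 in controls (log2 difference 1.13, SE 0.19, limma adjusted p = 0.0761). Jup, or plakoglobin, the closest relative of beta-catenin, had 49.6, 18.2 and 1.5 in Med12 KO, against 104.2, 77.8 and 93.9 in controls (log2 difference -1.66, SE 0.47, limma adjusted p = 0.181). The actin linkers Ctnna1 (0.44) and Vcl (0.82) had groups that did not overlap and did not pass.

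**Figure D4:**
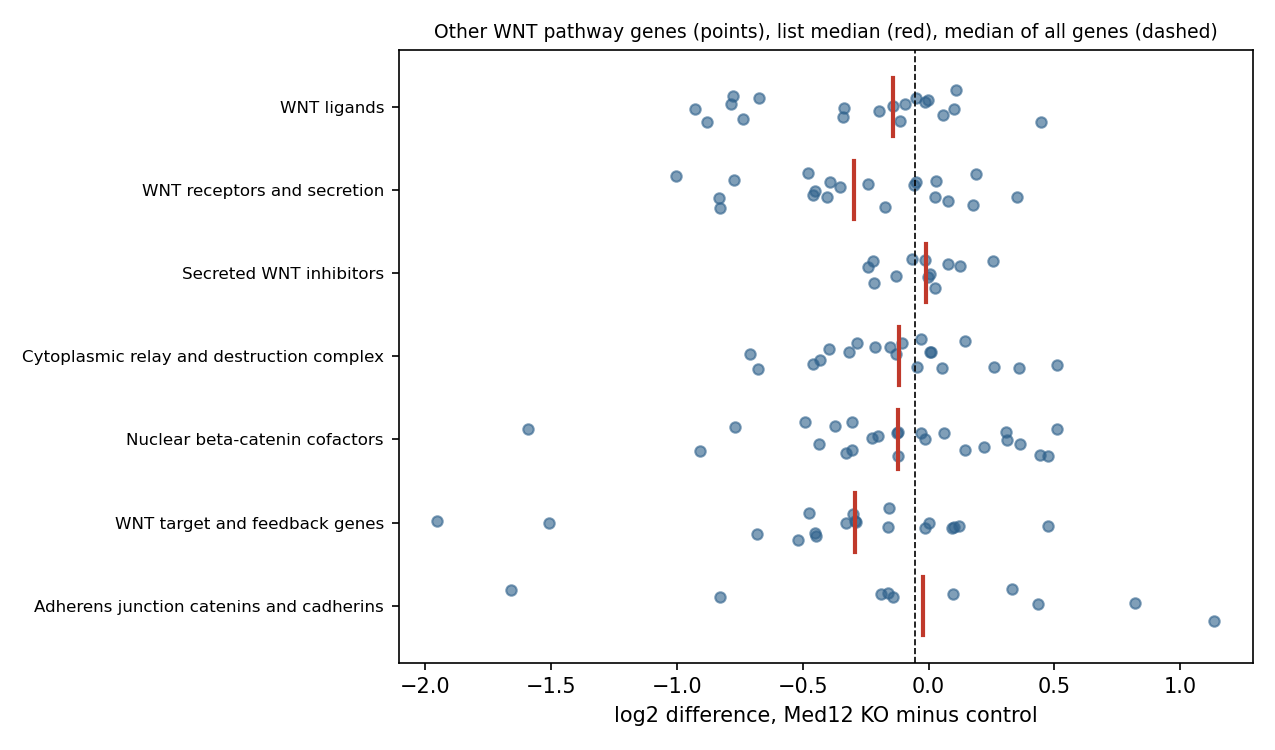
Log2 difference (Med12 KO minus control) of each of the 125 other WNT pathway genes, 1 point per gene, in 7 lists by role; red bars are list medians and the dashed line is the median of all genes, -0.05. Points furthest left are Sox4 (-1.95), Jup (-1.66) and Tle2 (-1.59), and the furthest right is Cdh15 (1.13).

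Over the 6 arrays, the genes whose log2 values followed Bcl9 most closely, among 18192 compared, were Otud3 (Pearson r = 0.995), Rel (0.994) and Ccdc125 (0.993). Otud3 encodes a deubiquitinase and Rel an NF-kB subunit. All 3 separated the groups as Bcl9 did, so each correlation contains the group difference. Rel, for example, had 81.3, 90.6 and 55.6 in Med12 KO, against 302.5, 287.1 and 264.6 in controls. Rel fell (log2 difference -1.73; limma adjusted p = 0.0314), as did Ccdc125 (-1.85; adjusted p = 0.0314), while Otud3 (-0.47; adjusted p = 0.153) did not pass.

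Markers of several cell types within or near the gate moved with the same contrast. The summed signal of 9 early lymphoid genes was 195.4 to 356.3 on the Med12 KO arrays and 3812 to 4693.8 on the control arrays. All 9 were negative, and 5 fell, among them Dntt (-5.59) and Rag2 (-2.46). Over all genes, by the brightest probe set, 0.638% passed with lower and 0.352% with higher signal in Med12 KO. The sum of 10 granulocyte-monocyte genes was 1759.2 to 2513.7 in Med12 KO and 9613.3 to 17089.3 in controls, with 6 that fell. On that list Csf2rb ran the other way, at 579.9 to 1018.5 in Med12 KO and 449.6 to 540.1 in controls. Its groups did not overlap (log2 difference 0.60, limma adjusted p = 0.283). The sum of 9 erythroid genes was 7951 to 12037.7 in Med12 KO and 3498.7 to 4164.8 in controls, with 6 that rose. The erythroid gene Slc4a1 ran the other way by its brightest probe set, at 11.8 to 13.9 in Med12 KO and 23.2 to 185.8 in controls (-1.60; adjusted p = 0.260). The sum of 8 megakaryocyte genes was 6355.2 to 8159.7 in Med12 KO and 3720.2 to 5521.6 in controls, with 1 that rose. Named with its values known, Pf4, the brightest of them, overlapped at 2976.8 to 3679.2 in Med12 KO and 2344.9 to 3552.8 in controls. Gp9 (0.15) and Vwf (0.19), also named so, overlapped too, while the rest of the list did not. The 8 HSPC markers summed to 2865.8 to 3411.7 in Med12 KO and 5507.1 to 7776.7 in controls, and 1 of them, Hlf, fell. The dimmer of the 2 Kit probe sets also fell (-1.27; limma adjusted p = 0.0479), and the brighter was at -0.89 (adjusted p = 0.152). On the same list Tek was at 1.35 (adjusted p = 0.185) with groups that did not overlap, and the 3 Slamf1 probe sets were at 0.49 to 1.60, none of which passed.

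The 11 T cell genes summed to 398.2 to 748.7 in Med12 KO and 767.6 to 1015.5 in controls, and 1, Trat1, fell (log2 difference -1.77). The mature T cell genes Cd3e and Cd3g, chosen after their values were seen, were dim in both groups. Cd3e was at 3.5 to 6.5 in Med12 KO and 3.1 to 19.7 in controls. Cd3g was at 5.6 to 12.3 in Med12 KO and 3.7 to 10.1 in controls. Other genes on the list, also named with their values known, were brighter. Cd247 was at 198.5 to 336.2 in Med12 KO and 403.2 to 648.9 in controls. Thy1 was at 132.8 to 316.8 in Med12 KO and 177.7 to 243.5 in controls. The 8 B cell genes summed to 126.7 to 393.5 in Med12 KO and 391.1 to 757.7 in controls, and none passed. No marker gene on these lists was at 0 on all arrays. The part of these marker differences in the Tcf7l2, Bcl9 and Sox4 values was not tested, and in sorted bulk cells fewer cells of a type and less RNA per cell cannot be told apart.

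**Figure D5:**
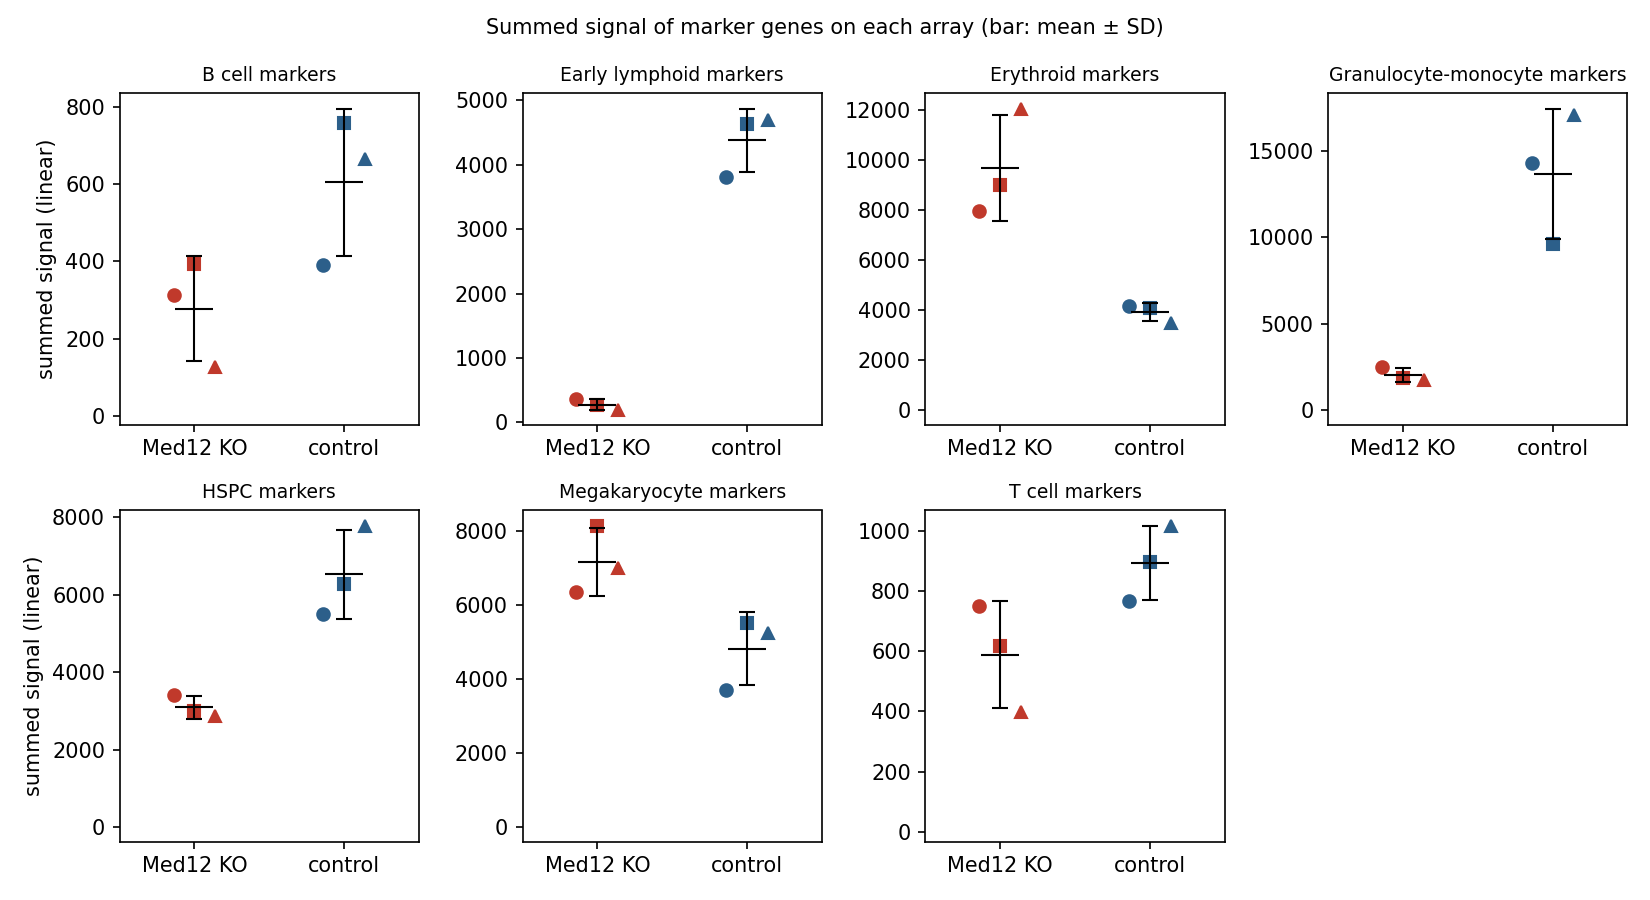
Summed deposited signal of each marker list on each array (vertical axes, linear), with the mean and SD as a bar. Early lymphoid and granulocyte-monocyte sums are lower and erythroid and megakaryocyte sums higher on all 3 Med12 KO arrays than on any control array, while the B cell sums overlap.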

How the data were processed

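Single-colour arrays were hybridised with biotin-labelled cDNA amplified from 5 ng of total RNA, per the labels' protocols. The authors deposited 1 linear signal intensity per probe set and array, and the submitters' processing notes name RMA. The deposited values are linear and hold zeros, which RMA does not give, so the method behind them is not known here. No value column was set aside (0 of 6), and 64 control probe sets were left out. The platform annotation of 2016 gave 34945 probe sets 1 symbol, 932 several and 9160 none, and only the first were named.

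Values were taken as log2(signal + 16), which understates differences of dim genes, and tested two-sided with limma 3.58.1 (lmFit, eBayes) under R 4.3.3, with 4 residual degrees of freedom, Benjamini-Hochberg adjustment over 45037 probe sets and a threshold of 0.05. Differences are Med12 KO minus control, and a gene stands for its probe set of highest mean. The steps were tested on simulated data with differences planted only in brighter probe sets, so recovery in dim ones was not tested. The members and lists were chosen with earlier results of these data known. Named genes were the members, Med12, and up to 4 genes per list by unadjusted p or past the threshold. The 3 genes most correlated with the member of smallest p were added. Csf2rb, Slc4a1, Slamf1, Tle3 and the genes so marked in the text were chosen after their values were seen. Replicate numbers did not pair the arrays, and the number of arrays limits the precision. Alternatives were other priors, array weights, a replicate block, 3 normalizations, offsets, filters, gene means and leaving out each array. The trended, robust prior together with the 25% filter was not planned.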

Additional observations from a re-analysis of the deposited data

How the results depend on the processing

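Over the 26 member probe sets, 400 values under alternatives kept their direction and their side of the threshold, 2 passed it, and 32 changed sign without passing. Calls over the whole table numbered 343, against 0 with the replicate block (6752 at an unadjusted p under 0.05), 42 with an offset of 1, 693 after median centring, 715 and 756 without the dimmest 25% and 50%, 924 with a trended, robust prior and the 25% filter, and 0 to 10 when 1 array was left out (0 without Med12 KO replicate 1 or 3, 3 without replicate 2, and 8, 8 and 10 without a control). The share of calls with higher signal in Med12 KO was 28.9%, against 62.2% after median centring, 43.0% with quantile normalization and 9.52% with an offset of 1. Member probe sets called numbered 0, against 1 with an offset of 64 (Bcl9) and 1 without the dimmest 50% (Tcf7l2 1426639_a_at), where 22518 probe sets were tested. WNT list genes called numbered 0, against 1 (Sox4) with a trended, robust prior, 1 with either filter, 1 with that prior and the 25% filter together, 2 (Sox4, Cdh15) after median centring, and 4 (Sox4, Lrp5, Crebbp, Cdh15) as gene means. The Ctnnb1 gene mean was 0.21.

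Sign changes of members were as follows. Median centring gave Ctnnb1 1420811_a_at 0.24, Lef1 1421299_a_at 0.16, Apc 1420956_at 0.23, Gsk3b 1437001_at 0.12, Gsk3b 1451020_at 0.20 and Bcl9 1455565_at 0.20. Quantile normalization gave Ctnnb1 1420811_a_at 0.046 and Bcl9 1455565_at 0.099, and loess gave that Bcl9 probe set 0.094. Array weights gave Axin2 1421341_at -0.056, and an offset of 1 gave it -0.043 and Gsk3b 1439949_at -0.011. Leaving out 1 array gave ranges of -0.13 to 0.097 for Ctnnb1 1420811_a_at, -0.0054 to 0.45 for Ctnnb1 1430533_a_at, -0.21 to 0.40 for Axin2 1421341_at, -0.27 to 0.33 for Apc 1420956_at, -0.36 to 0.27 for Apc 1435543_at, -0.061 to 0.24 for Gsk3b 1434439_at, -0.27 to 0.0015 for Gsk3b 1437001_at, -0.092 to 0.47 for Gsk3b 1439949_at, -0.16 to 0.069 for Gsk3b 1451020_at and -0.26 to 0.068 for Bcl9 1455565_at. The cause was not tested. Correlations of same-numbered arrays' deviations were 0.019, 0.019 and 0.0019, so the numbers are not taken as pairs. With the replicate block the 4 Tcf7l2 and 1 brighter Bcl9 probe sets kept their direction, with adjusted p between 0.178 and 0.316.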
